A study of Mus musculus with 6 samples.

Results

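The genes described here are those with a zinc finger name among the transcripts that the authors called different after Gata4 was targeted in TM4 cells, an immortalized mouse Sertoli cell line. Sertoli cells line the seminiferous tubules of the testis and nourish the germ cells. Their symbols start with Zfp, Zbtb, Zkscan or Zscan followed by a digit. The rule found 25 probes under 24 deposited symbols. Zfp496 and Zkscan17 carry the same Entrez number and are counted as 1 gene, Zkscan17, so that 23 genes remain of 2029 genes named in the authors' deposited table. These genes were selected on the difference between the groups, as the authors measured and tested it on the same 6 arrays. Their differences are therefore a description, and no test here gives them independent support. Zinc finger genes outside that table are unnamed in these data, so the 23 are not the zinc finger genes of the cell as a whole.

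The comparison had 3 samples that received 4 pooled small interfering RNAs (siRNAs) against Gata4 and 3 samples transfected with a non-targeting (NT) siRNA, all at 0.1 µM. All samples came from the same line, at passage 12 per the sample labels and 13 per their treatment text. Each sample was read on 1 array of an Illumina BeadChip, and nothing in the labels says that replicates were separate cultures. The series' design text numbers the controls in a way that conflicts with 3 per group, and the sample titles were followed. The oligonucleotides that define the groups are shown here because the whole contrast rests on them. The labels do not say which strand is listed, and no capitals are used.
Gata4 siRNA 1: agagaauagcuucgaacca
Gata4 siRNA 2: ggauauggguguuccgggu
Gata4 siRNA 3: cugaauaaaucuaagacgc
Gata4 siRNA 4: ggacauaaucaccgcguaa
non-targeting siRNA: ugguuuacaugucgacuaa

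A zinc finger is a short protein fold held together by a zinc ion. In the classical C2H2 type, arrays of such fingers read DNA, and the largest class joins them to a KRAB domain, which recruits the co-repressor Trim28 and repressive chromatin. SCAN and BTB domains in other members make protein pairs, and BTB proteins recruit deacetylase complexes. Gata4, the targeted factor, has zinc fingers of a different class and is needed for Sertoli cell function in the testis.

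The label of zinc finger transcription factors holds for most of the 23 genes but not for all. Zfp36l1 is an RNA-binding protein that promotes decay of messages with AU-rich elements. Zfp346 binds double-stranded RNA. Zpr1, deposited as Zfp259, binds the translation elongation factor eEF1A. Zfp593 has a yeast counterpart, Bud20, that works in ribosome export. The set is therefore called zinc finger genes below. These role groups were drawn up after the values had been seen.

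NT siRNA array 3 stood apart from the other NT siRNA arrays. Over the probes tested its r across probes was 0.987 or 0.988 with them, against 0.993 between NT siRNA arrays 1 and 2, and its limma array weight was the lowest, 0.38 against 0.79 to 1.97 for the other 5 arrays. Counts of calls without it are given below, and gene differences without it only for Zfp148, Zfp593, Zfp202 and Zfp276. Differences and calls of other genes moved too.

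Deposited intensities (linear array units after the authors' background subtraction) lay above the noise floor of 17.1 units for all 23 genes on all 6 arrays. The dimmest values were not far above it, with Zfp593 at 37.9 on NT siRNA array 3 and Zfp467 at 40.5 on Gata4 siRNA array 1. In Gata4 siRNA cells 11 genes were higher and 12 were lower than in NT siRNA cells. In bulk samples such as these, fewer cells of a type and less RNA per cell cannot be told apart. The arrays of the groups did not overlap for any of the 23, a separation also seen for 33.2% of all 17740 probes tested. With limma and Benjamini-Hochberg adjustment over all probes tested, 8 of the genes passed an adjusted p of 0.05 as higher and 6 as lower, and 9 did not pass. The same threshold was passed by 8.78% of all probes tested, 4.07% higher and 4.71% lower. Since the authors chose the genes on this contrast, nothing is read from the excess over that background. The median log2 difference (Gata4 siRNA minus NT siRNA, after a background correction with an added constant of 16) was 0.57 among the higher genes and -0.55 among the lower ones. Over all probes tested the median was 0.21 among those with a positive difference and -0.22 among those with a negative one.

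Calls depended on single arrays. Without NT siRNA array 3, Zfp524 and Zfp213 passed the threshold. Zfp467, Zfp148, Zfp532, Zpr1, Zfp346 and Zfp3 then no longer did. The number called was 0 higher and 2 lower without Gata4 siRNA array 1, 0 and 1 without Gata4 siRNA array 2, 2 and 2 without Gata4 siRNA array 3, 0 and 2 without NT siRNA array 1, 1 and 2 without NT siRNA array 2, and 6 and 4 without NT siRNA array 3. Among all probes tested the share called was 2.1%, 1.45%, 5.93%, 2.75%, 4.08% and 9.03% in the same order. At an unadjusted limma p under 0.05 the counts without Gata4 siRNA array 1 were 10 higher and 12 lower, where 21.3% of all probes passed. Those without Gata4 siRNA array 2 were 10 and 10, against 19.5% of all probes, and those without NT siRNA array 1 were 10 and 11, against 21.4%. Nothing is read from these counts, since the authors selected the genes on a p from the same arrays. No gene changed its sign in any of these fits, and none could, since the arrays of the groups did not overlap.

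**Figure D1:**
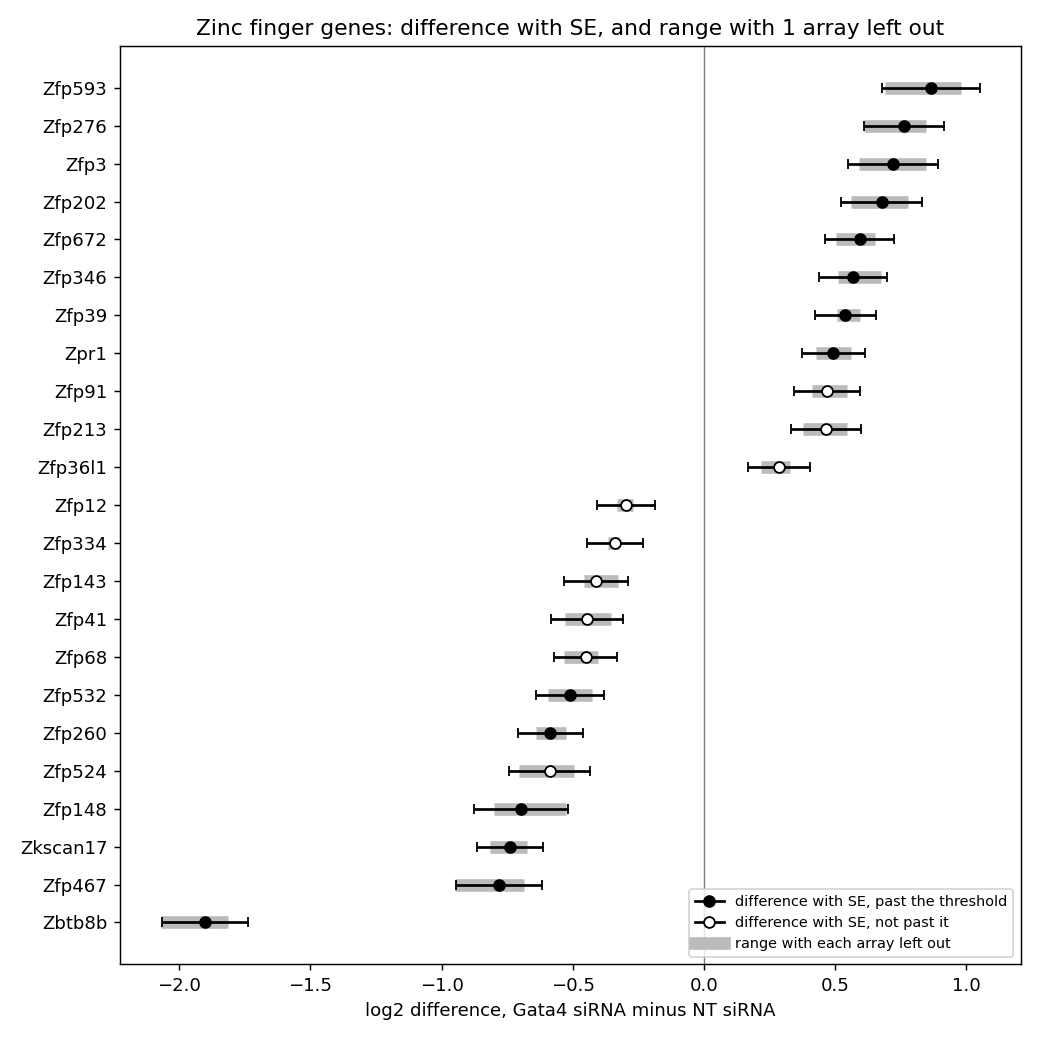
Log2 difference of each of the 23 zinc finger genes, Gata4 siRNA minus NT siRNA. Points with bars are the difference and its SE with 3 arrays per group, filled where the adjusted p was under 0.05, and grey bars span the values with each array left out. Zbtb8b at -1.90 lies apart from the other 22 genes, which lie between -0.78 and 0.86.

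Zbtb8b, a BTB domain protein, was the gene with the largest difference in the set. Its intensity was 174.6, 173.0 and 253.5 on the Gata4 siRNA arrays, against 849.8, 746.6 and 749.4 on the NT siRNA arrays. The highest of these, Gata4 siRNA array 3, thus stayed far below the lowest NT siRNA array. The mean of 200.4 ± 46.0 in Gata4 siRNA cells against 781.9 ± 58.8 in NT siRNA cells (SD, n = 3 each) is a ratio of 0.256. On the log2 scale the difference was -1.90 ± 0.16 (SE), and it ranged from -2.07 to -1.81 with each array left out. Only 3 of the 17740 probes tested had a more negative difference. It was the 1 gene of the 23 that passed the threshold under every one of 15 alternatives.

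The SCAN domain genes went both ways. Zkscan17, known in the mouse as Nizp1 for its binding to the histone methyltransferase Nsd1, has probes under each of its names. The brighter one, deposited as Zfp496, had an intensity of 1840.3, 1576.9 and 1547.4 on the Gata4 siRNA arrays, against 3021.5, 2671.6 and 2616.2 on the NT siRNA arrays (log2 difference -0.74 ± 0.13, SE). The probe deposited as Zkscan17 had 290.8, 290.8 and 342.6 on the Gata4 siRNA arrays, against 561.6, 543.2 and 712.5 on the NT siRNA arrays (-0.93 ± 0.14). Both probes therefore placed the gene lower on every Gata4 siRNA array, at 0.597 and 0.509 of the NT siRNA mean. Zfp202, whose human counterpart represses genes of lipid metabolism, was higher instead. Its intensity was 162.4, 126.2 and 134.2 on the Gata4 siRNA arrays, against 66.9, 84.2 and 96.2 on the NT siRNA arrays (0.68 ± 0.15). Zfp213, a SCAN protein like its human counterpart, had 365.7, 364.2 and 415.6 on the Gata4 siRNA arrays, against 239.5, 273.3 and 306.7 on the NT siRNA arrays. Its difference of 0.46 ± 0.13 did not pass the threshold.

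**Figure D2:**
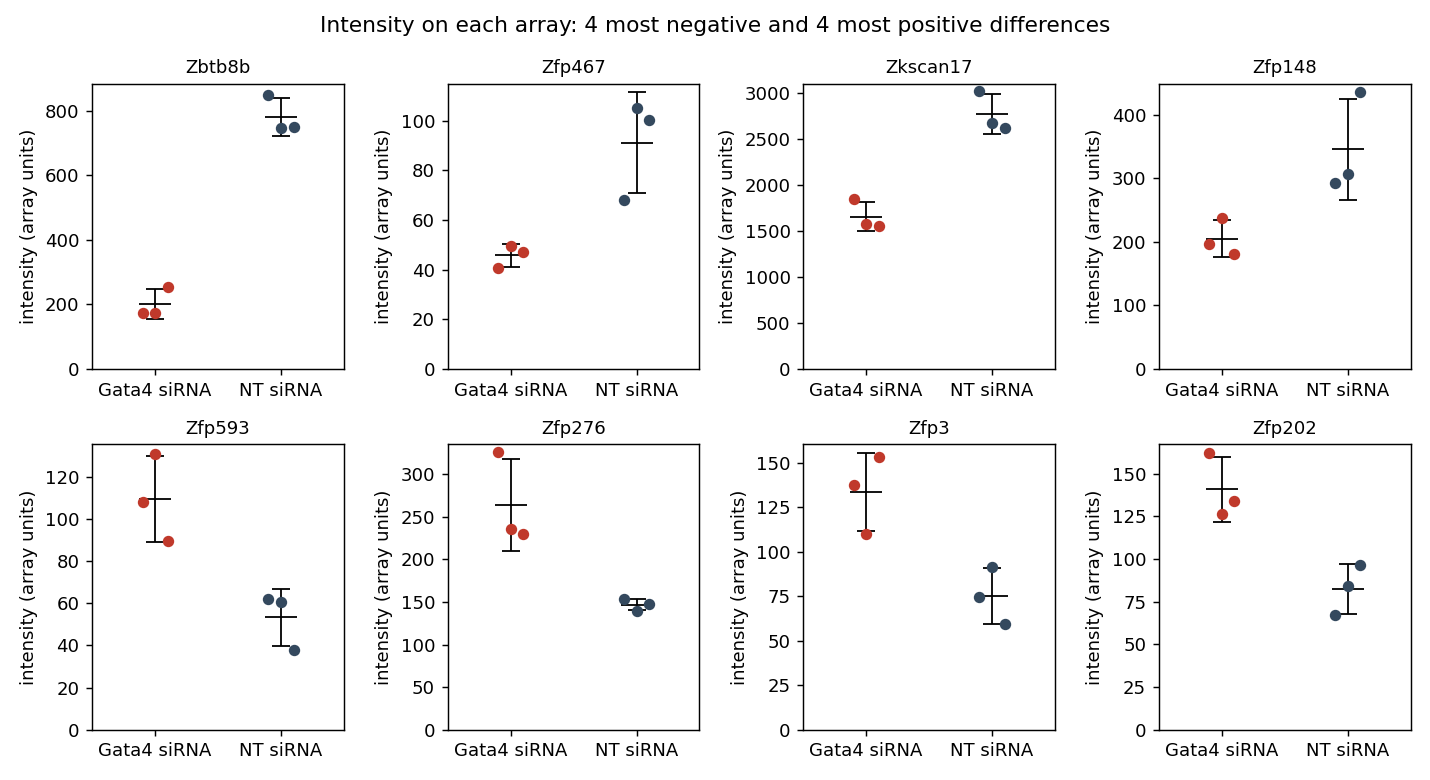
Deposited intensity on each array, in linear array units, for the 4 genes with the most negative differences (upper row) and the 4 with the most positive (lower row), with Gata4 siRNA left and NT siRNA right in each panel. Points are arrays in the order of their replicate numbers, and bars are the mean and SD of 3 arrays. Each panel has its own scale from 0, and no Gata4 siRNA array crosses into the range of the NT siRNA arrays.

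Among 6 C2H2 proteins with a described role in regulation, 5 were lower, 4 of which passed the threshold, and 1 was higher without passing it. Among all probes tested 4.71% passed as lower. The group was drawn up after the values had been seen, on genes selected by the contrast, so nothing is read from its direction. Zfp260 has been described in rat heart muscle cells as a partner of GATA4. Its brighter probe had 698.0, 650.0 and 590.0 on the Gata4 siRNA arrays, against 909.1, 967.1 and 1054.9 on the NT siRNA arrays (log2 difference -0.59 ± 0.12, SE). The other named probe gave 659.5, 647.6 and 616.1 on the Gata4 siRNA arrays, against 856.0, 1008.3 and 977.7 on the NT siRNA arrays (-0.55 ± 0.12). Both probes put the gene at about the same fraction of the NT siRNA mean, 0.661 and 0.677.

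Zfp467, known in the mouse as EZI and for a role in the choice between bone and fat cells, was lower on every Gata4 siRNA array. It had 40.5, 49.6 and 47.2 on the Gata4 siRNA arrays, against 68.0, 105.1 and 100.5 on the NT siRNA arrays. NT siRNA array 1 lay closest to the Gata4 siRNA range, and the difference was -0.78 ± 0.16 (SE). Zfp148, or ZBP-89, which binds GC-rich promoter elements, had 196.2, 237.9 and 180.9 on the Gata4 siRNA arrays, against 293.0, 307.5 and 436.2 on the NT siRNA arrays. NT siRNA array 3 was far above the other NT siRNA arrays, and without that array the difference was -0.53 in place of -0.70 ± 0.18. Zfp532, whose human counterpart is joined to NUT in some carcinomas, had 299.7, 271.2 and 282.0 on the Gata4 siRNA arrays, against 409.8, 365.1 and 466.0 on the NT siRNA arrays (-0.51 ± 0.13).

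Zfp143, an activator of small nuclear RNA genes and of many protein-coding promoters, was tight in Gata4 siRNA cells. It had 300.2, 309.8 and 301.7 on those arrays, against 384.5, 386.1 and 463.6 on the NT siRNA arrays, and its difference of -0.41 ± 0.12 (SE) did not pass the threshold. Zfp91, was the higher one of the 6, and unlike the other 5 it is named here for a role at the protein level, the ubiquitination of the kinase NIK in human cells. It had 1040.5, 1012.5 and 875.6 on the Gata4 siRNA arrays, against 722.3, 733.1 and 645.1 on the NT siRNA arrays (0.47 ± 0.12, not past the threshold).

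**Figure D3:**
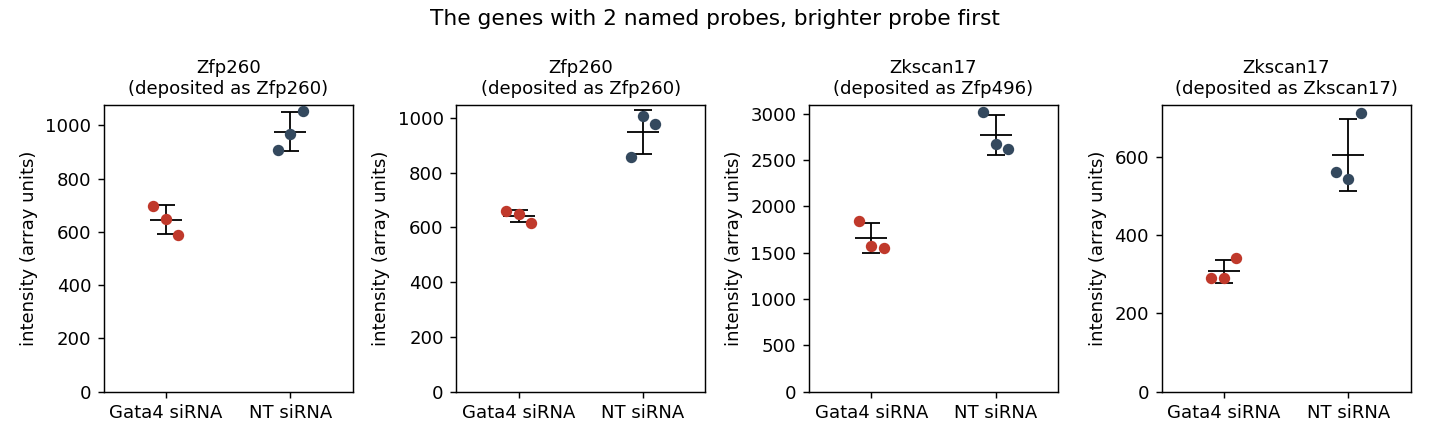
Intensity in linear array units on each array for both named probes of Zfp260 and of Zkscan17, with Gata4 siRNA left and NT siRNA right. Points are arrays, bars are the mean and SD of 3 arrays, and each panel has its own scale from 0. In all 4 panels every Gata4 siRNA array lies below every NT siRNA array.

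The 9 further finger proteins, known mostly by number, were split into 4 higher and 5 lower. With limma all 4 higher ones passed the adjusted threshold and 0 of the 5 lower ones did. Among all probes tested 4.07% passed it as higher and 4.71% as lower, and nothing is read from the split. All 5 lower ones had an unadjusted limma p under 0.05, as did 26.8% of all probes tested. At an offset of 50 in place of 16, Zfp524, Zfp68 and Zfp41 of these 5 also passed. The whole set then gave 10 higher and 10 lower, with 2282 of the 17740 probes tested called. Zfp276 had 325.7, 235.3 and 230.1 on the Gata4 siRNA arrays, against 153.3, 139.7 and 147.9 on the NT siRNA arrays (log2 difference 0.76 ± 0.15, SE). Gata4 siRNA array 1 stood above the other arrays, and without that array the difference was the lowest of its range, 0.61. Zfp3 had 137.7, 110.3 and 153.4 on the Gata4 siRNA arrays, against 74.8, 91.4 and 59.5 on the NT siRNA arrays (0.72 ± 0.17). Zfp672 had 599.0, 515.2 and 535.5 on the Gata4 siRNA arrays, against 376.1, 389.7 and 314.0 on the NT siRNA arrays (0.59 ± 0.13). For Zfp3 the gap between the groups was narrower than the spread within either group, while for Zfp672 it was wider. Zfp39 had 97.3, 112.2 and 111.0 on the Gata4 siRNA arrays, against 65.7, 66.4 and 73.5 on the NT siRNA arrays (0.54 ± 0.12).

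The 5 lower ones of these 9 lay between -0.59 and -0.30. Zfp524 had 175.3, 201.1 and 231.1 on the Gata4 siRNA arrays, against 347.9, 328.9 and 261.5 on the NT siRNA arrays (log2 difference -0.59 ± 0.15, SE). Gata4 siRNA array 3 and NT siRNA array 3 came closest to each other, at 231.1 and 261.5. Zfp68, a KRAB protein by its synonyms, had 774.7, 653.9 and 644.5 on the Gata4 siRNA arrays, against 941.1, 932.8 and 968.5 on the NT siRNA arrays (-0.45 ± 0.12). Zfp41 had 310.5, 250.7 and 304.1 on the Gata4 siRNA arrays, against 427.1, 415.0 and 353.1 on the NT siRNA arrays (-0.45 ± 0.14). The remaining pair showed the smallest negative differences of the set. Zfp334 had 339.5, 332.6 and 338.5 on the Gata4 siRNA arrays, against 440.9, 435.7 and 415.6 on the NT siRNA arrays (-0.34 ± 0.11). Zfp12, whose human counterpart is a KRAB repressor, had 750.0, 718.3 and 762.4 on the Gata4 siRNA arrays, against 936.7, 943.8 and 870.3 on the NT siRNA arrays (-0.30 ± 0.11).

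All 4 genes set apart above for RNA binding, protein binding or ribosome export were higher in Gata4 siRNA cells, and 3 of them passed the threshold. Among all probes tested 4.07% passed as higher. The other 19 genes were 7 higher and 12 lower. This grouping was drawn up after the values had been seen, on genes selected by the contrast, so nothing is read from the split. Zfp593 had the most positive difference of the set, with 108.1, 130.8 and 89.8 on the Gata4 siRNA arrays, against 61.9, 60.4 and 37.9 on the NT siRNA arrays. This is a ratio of means of 2.05 and a log2 difference of 0.86 ± 0.19 (SE). Without NT siRNA array 3 its difference was 0.69, below Zfp202 at 0.78 and Zfp276 at 0.77. Zfp346 had 275.4, 215.6 and 269.0 on the Gata4 siRNA arrays, against 170.6, 161.8 and 161.6 on the NT siRNA arrays (0.57 ± 0.13). Zpr1 had 3532.9, 3233.6 and 2946.1 on the Gata4 siRNA arrays, against 2250.8, 2269.5 and 2349.4 on the NT siRNA arrays (0.49 ± 0.12). The NT siRNA arrays of both genes were close together, and their Gata4 siRNA arrays more spread out. Zfp36l1 had 8316.2, 8549.2 and 8068.4 on the Gata4 siRNA arrays, against 7049.7, 6199.5 and 7223.1 on the NT siRNA arrays. Its difference of 0.29 ± 0.12 was the smallest of the set in size, and it passed the threshold in none of the 15 alternatives.

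**Figure D4:**
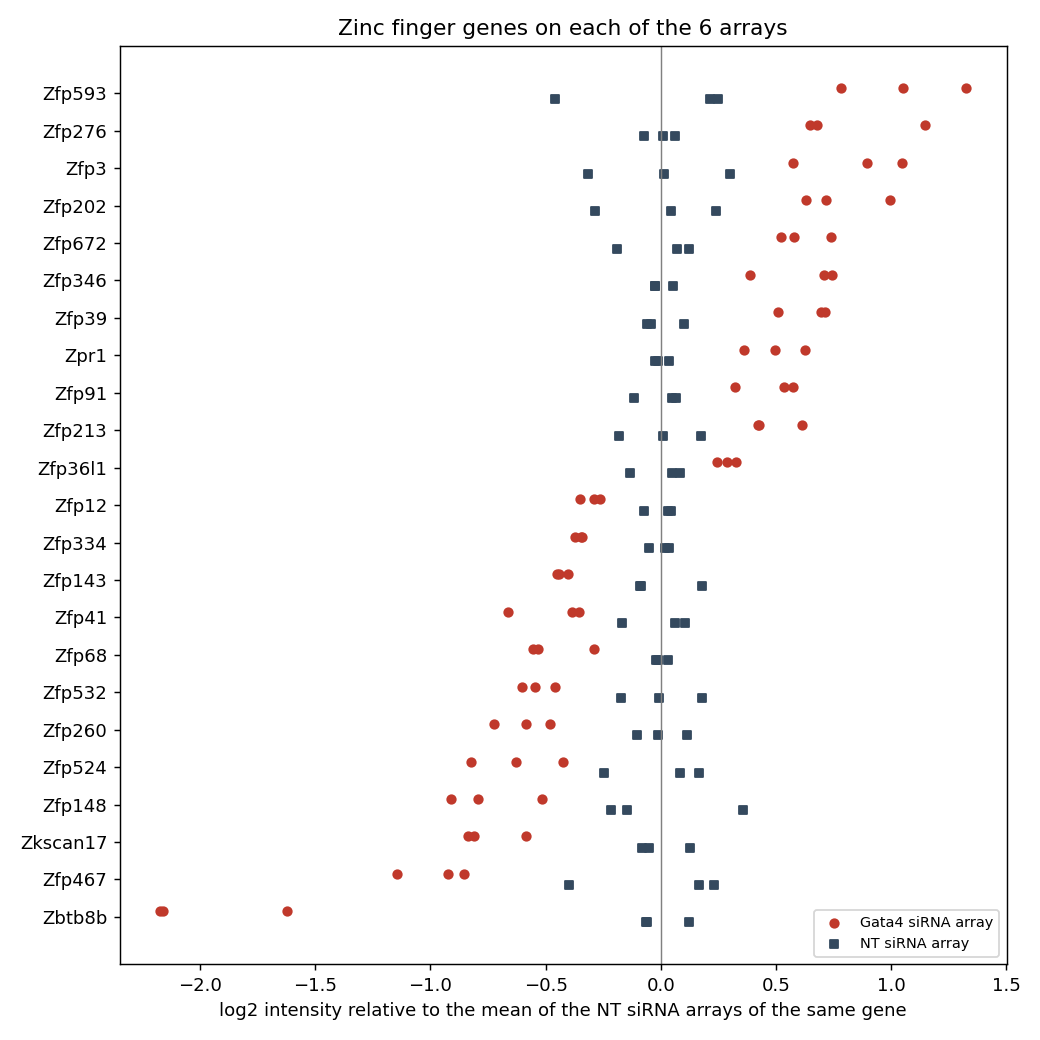
Log2 of the deposited intensity on each array relative to the mean of the NT siRNA arrays of the same gene, without an added constant. Circles are Gata4 siRNA arrays and squares NT siRNA arrays, 3 each per gene. The groups are apart in every row, and the NT siRNA arrays of Zfp593, Zfp467, Zfp148 and Zfp3 are among the widest.

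The genes were sorted by the sign of their difference, and their groups do not overlap. The side on which each Gata4 siRNA array lies was therefore fixed, and only the size of its shift is described. Taking each gene relative to its NT siRNA mean on the log2 scale of the fit, the median over the 11 higher genes was 0.69, 0.50 and 0.59 on Gata4 siRNA arrays 1 to 3, against 0.05, 0.01 and 0.01 on the NT siRNA arrays. Over the 12 lower genes it was -0.46, -0.57 and -0.53 on the Gata4 siRNA arrays, against 0.01, -0.02 and -0.01 on the NT siRNA arrays. Gata4 siRNA array 1 thus lay farthest from the controls for the higher genes and nearest to them for the lower genes.

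Upstream sequence was looked at because these genes had been chosen for a shared contrast, the targeting of a factor that binds GATA words. RefSeq promoter windows (GRCm38.p6, 250 bases before to 50 after a start) were found for 18 of the 23 genes, 9 higher and 9 lower, with 23 windows in all. GATA words were searched on both strands, as AGATAA or as AGATAG, and in the forms that begin with T, which are TGATAA and also TGATAG. They occurred in 3 of the 18 genes, 3 of the 9 higher and 0 of the 9 lower, and in 33.0% of the 27025 genes of the promoter table. The GC box GGGCGG was present in 3 of the higher and 5 of the lower genes, against 38.2% of all genes, and the CCAAT box in 6 of the higher and 4 of the lower, against 41.1%. The word ACTACAA, part of the site that Zfp143 reads, was in 0 of the 18, against 3.8% of all genes. These are matches of letters in short windows, and nothing follows from them about binding.

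The windows of the zinc finger genes had a median G and C content of 58.0%, against 52.7% in all 32851 windows. Their median ratio of observed to expected CpG was 0.73, against 0.38. The 32851 windows were not limited to genes detected in these cells, so neither gap can be read as a trait of zinc finger genes. Overlapping windows of a gene were counted separately. Of the lower genes, Zbtb8b, with the largest difference, and Zkscan17, with agreeing probes, are shown. Zfp260, whose probes also agree, and Zfp467 are not shown, and their windows hold 0 CCAAT boxes. The box was in 4 lower genes and 6 higher ones. Capitals mark the CCAAT box, which reads ATTGG on the opposite strand. In Zbtb8b it begins 56 bases before the start, and in Zkscan17 the boxes begin 44 bases before and 29 after it.
Zbtb8b, GRCm38.p6 chr4:129440769-129441068, minus strand: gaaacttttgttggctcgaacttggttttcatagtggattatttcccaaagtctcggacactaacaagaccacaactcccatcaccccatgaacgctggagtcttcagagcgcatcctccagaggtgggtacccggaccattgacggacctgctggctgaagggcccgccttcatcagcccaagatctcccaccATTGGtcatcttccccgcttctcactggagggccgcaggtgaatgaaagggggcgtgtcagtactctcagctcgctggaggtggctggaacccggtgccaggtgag
Zkscan17, GRCm38.p6 chr11:59506591-59506890, minus strand: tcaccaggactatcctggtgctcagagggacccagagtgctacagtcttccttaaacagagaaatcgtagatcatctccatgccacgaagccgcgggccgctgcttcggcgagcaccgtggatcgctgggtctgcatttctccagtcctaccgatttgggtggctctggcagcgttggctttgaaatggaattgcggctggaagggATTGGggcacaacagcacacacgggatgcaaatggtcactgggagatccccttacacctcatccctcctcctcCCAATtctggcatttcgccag

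The 3 windows with a GATA word are shown next. They belong to 3 of the 9 higher genes, which is 33.3%, against 33.0% of all genes of the promoter table. The share in the higher genes is thus that of genes at large, and no trait of these genes is read from it. Capitals mark the word AGATAG, which reads CTATCT on the opposite strand. It begins 172 bases before the start in Zfp91, 101 bases before it in Zfp39 and 15 bases after it in Zfp672, where 1 of 3 windows of the gene holds it.
Zfp91, GRCm38.p6 chr19:12796074-12796373, minus strand: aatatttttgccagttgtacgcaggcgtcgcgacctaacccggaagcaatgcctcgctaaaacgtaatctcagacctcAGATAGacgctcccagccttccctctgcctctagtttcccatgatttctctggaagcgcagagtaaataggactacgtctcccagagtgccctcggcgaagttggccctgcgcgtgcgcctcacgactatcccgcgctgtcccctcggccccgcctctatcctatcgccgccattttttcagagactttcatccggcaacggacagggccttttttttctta
Zfp39, GRCm38.p6 chr11:58904176-58904475, minus strand: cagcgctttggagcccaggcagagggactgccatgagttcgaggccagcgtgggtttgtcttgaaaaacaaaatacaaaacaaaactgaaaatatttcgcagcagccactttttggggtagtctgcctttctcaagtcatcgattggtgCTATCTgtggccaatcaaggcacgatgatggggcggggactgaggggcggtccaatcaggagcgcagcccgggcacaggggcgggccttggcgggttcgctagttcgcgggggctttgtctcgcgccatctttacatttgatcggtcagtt
Zfp672, GRCm38.p6 chr11:58330290-58330589, minus strand: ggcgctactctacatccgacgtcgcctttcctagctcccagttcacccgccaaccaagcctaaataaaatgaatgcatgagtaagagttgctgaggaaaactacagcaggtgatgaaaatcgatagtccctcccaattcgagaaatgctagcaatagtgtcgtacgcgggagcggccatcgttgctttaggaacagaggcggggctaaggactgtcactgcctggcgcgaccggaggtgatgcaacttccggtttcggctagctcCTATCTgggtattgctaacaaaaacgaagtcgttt

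By the order of genes in the same assembly, the 23 genes lay on 15 chromosomes. The closest run was Zfp672, Zfp39 and Zkscan17, with 31 and 20 protein-coding genes between neighbours. Members of this run did not move together, since Zfp672 and Zfp39 were higher and Zkscan17 was lower. Every other pair of neighbours on a chromosome had at least 54 protein-coding genes between them.

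Genes of the co-repressor machinery that KRAB and BTB proteins use were taken from lists and named only where the authors had called them. Of 30 genes of the KRAB co-repressor and heterochromatin list, 3 were named, of which 1 passed as higher and 2 did not pass. Morc2a, a chromatin compaction factor, had 2014.7, 1907.9 and 1825.0 on the Gata4 siRNA arrays, against 1228.6, 1435.0 and 1422.4 on the NT siRNA arrays (log2 difference 0.49 ± 0.12, SE). The helicase Chd3 of the NuRD complex was at -0.59 ± 0.15 and the histone methyltransferase Ehmt2 at -0.26 ± 0.11. Of 19 genes of the BTB partner list, 3 were named, of which 1 passed as lower and 2 did not pass. The deacetylase Hdac7 had 487.2, 508.8 and 542.3 on the Gata4 siRNA arrays, against 821.8, 735.3 and 1277.5 on the NT siRNA arrays (-0.82 ± 0.20). NT siRNA array 3 stood well above the others. Bcor, a BCL6 co-repressor, was at -0.54 ± 0.15 and Hdac5 at -0.52 ± 0.14.

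Other zinc finger genes outside the naming rule also went both ways. Of 59 genes on a list of other C2H2 genes, 8 were named, of which 2 passed as higher, 2 passed as lower and 4 did not pass. Egr3, an immediate early gene, had 237.5, 275.3 and 229.7 on the Gata4 siRNA arrays, against 97.0, 86.5 and 89.9 on the NT siRNA arrays (log2 difference 1.30 ± 0.12, SE). Zfhx2, a zinc finger homeobox gene, was at 0.82 ± 0.13. The odd-skipped factors Osr2 and Osr1 of the embryonic kidney and gonad were at -0.53 ± 0.14 and -0.45 ± 0.11. The 4 that did not pass were Egr1 at 0.37 ± 0.12, Zeb2 at 0.28 ± 0.11, Zfhx3 at -0.35 ± 0.12 and Gli2 at -0.30 ± 0.11. Of 21 Krüppel-like and Sp genes, 3 were named and 2 passed as lower. Klf2 had 82.7, 87.2 and 88.3 on the Gata4 siRNA arrays, against 158.5, 144.6 and 231.6 on the NT siRNA arrays (-0.90 ± 0.17). Klf4, a factor of epithelial differentiation, was lower at -1.66 ± 0.24, while Klf5 was at 0.40 ± 0.12 and did not pass. Of 9 GATA and FOG genes, Gata3 and Zfpm1 were named and both passed as lower, at -1.36 ± 0.12 and -0.81 ± 0.12. These genes too carry a name only because the authors called them.

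A further 4 genes bear a Zfp name through their Entrez number and not through the deposited symbol, and stand outside the rule. Zfp84 was at 0.62 ± 0.15 (log2 difference ± SE, past the threshold), Zfp512b at 0.45 ± 0.13 and Zfp862-ps at 0.41 ± 0.12, while Zfp945 was at -0.64 ± 0.18. The last 3 did not pass.

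The targeted gene Gata4 has no named probe in the tables used, so the knockdown was not checked by its own transcript. Of 25 Sertoli markers 3 were named, and all passed: Sox9 was higher at 0.59 ± 0.11, while Inhbb and Tjp1 were lower at -0.53 ± 0.12 and -0.67 ± 0.16 (log2 difference ± SE). The cell identity could not be checked on the other 22. All 4 named of 7 smooth muscle and peritubular myoid markers passed as higher. They were Tagln at 0.93 ± 0.15, Actg2 at 0.73 ± 0.12, Mylk at 0.72 ± 0.16 and Acta2 at 0.53 ± 0.12. Markers carry a name only because the authors called them on this contrast, so neither count is independent evidence of a shift. Among all probes tested 8.78% passed. The summed intensity of the 4 smooth muscle markers was 18912 to 21319 on the Gata4 siRNA arrays, against 12757 to 14165 on the NT siRNA arrays. Most of that sum is Acta2, with a mean of 16890.5 in Gata4 siRNA cells and 11686.1 in NT siRNA cells. The part of these markers in the differences of the zinc finger genes was not tested. Of the macrophage markers Cd14 alone was named, at 0.39 ± 0.12 (log2 difference ± SE, not past the threshold), and of the Leydig, germ and endothelial lists 0 were named. Probe sequences were not used here, so a signal from a related zinc finger gene was not tested either.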

How the data were processed

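Total RNA of 6 TM4 samples was hybridized to Illumina BeadChips, per the labels' protocols. The deposited value table holds intensities, linear and background-subtracted, with 37.1% below 0. Its columns share nearly the same distribution. Per the submitters' processing notes the software was GenomeStudio, with no version or settings in the sources used here. The authors' deposited table of called probes, whose log2 fold changes and p-values were not used in any step, gave symbols and Entrez numbers. Another 18 per-array columns could not be matched to the labels and stayed out of every step.

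Intensities were corrected with normexp (background mean 0, SD 9.4 from the values below 0), given an offset of 16 and log2-transformed. The added constant shrinks the differences of dim probes. A noise floor of 17.1 units was set at the percentile 95 of the absolute negative intensities, and the 17740 of 45269 probes that exceeded it on 3 or more arrays were tested. The groups, set by sample titles, were compared over all probes tested with limma 3.58.1 (lmFit, eBayes; R 4.3.3), two-sided, and 3 arrays per group limit the precision. The brightest probe stands for a gene. All 23 members are named with values; of genes outside the rule, those of fixed lists and 4 genes with such a name by Entrez number, chosen after their values were seen. Members and lists were chosen with earlier results of these data known. Tests were tried on simulated data. Names were updated through Entrez numbers with RefSeq (GRCm38.p6), where 2219 of 2415 probes matched. Figures were drawn with matplotlib 3.10.9. Alternatives covered dim values, filter, variance model, array weights, replicate block, each array left out and the probe rule. Where replicates are not separate cultures, p-values measure technical spread only.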

Additional observations from a re-analysis of the deposited data

How the results depend on the processing

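All 23 zinc finger genes kept the sign of their difference under the 15 alternatives run for each. Groups that do not overlap fixed that outcome in advance, so it lends no support. The number of calls did not hold: it was 8 higher and 6 lower, with 1558 of all probes tested called. With values floored at 1, 1 gene was called higher and 2 lower, with 734 probes in all. Without the filter on dim probes 5 were called higher and 3 lower. An offset of 50 gave 10 higher and 10 lower, with 2282 probes in all. A mean-variance trend called 2377 probes, and array weights called 3079 probes and 12 lower genes. With each array left out in turn, 0 to 6 genes were called higher, 1 to 4 lower, and 257 to 1602 probes. A fit on fewer arrays has fewer degrees of freedom; the other causes were not tested. A replicate block called 736 probes, with 2 zinc finger genes higher and 3 lower. Same-numbered arrays correlated at -0.06, -0.09 and -0.01 in their deviations from the group means. Differently numbered arrays ranged from -0.134 to 0.215. With 3 arrays per group these values cannot decide whether any samples are paired. Chosen after seeing the data, counting Zfp496 and Zkscan17 as separate genes gave 8 higher and 7 lower, and adding the 4 renamed genes gave 9 higher and 6 lower. Signal over background limits the dimmer probes: the log2 difference of Zfp593 was 0.63 with the offset of 50 and 1.05 with values floored at 1, and that of Zfp467 was -0.55 and -0.97.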
